A study of Mus musculus with 74 samples.

Results

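The long-range folding of the large mouse autosomes 2 to 7 was examined in 40 kb windows of the mm9 assembly. A window was a member if it started at or beyond 13 Mb and ended more than 10 Mb before the last window of its chromosome. This left out the centromere-proximal and telomere-proximal ends, and kept 20335 of the 68162 windows in the table. Chromosome 2 had 3968 members, chromosome 3 had 3414, chromosome 4 had 3315, chromosome 6 had 3162, and chromosomes 5 and 7 had 3238 each. The member range ran from 126.5 Mb on chromosome 6 to 158.7 Mb on chromosome 2.

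The samples were 74 single nuclear profiles (1NP) collected by genome architecture mapping (GAM), a ligation-free method. In GAM, a frozen cell pellet is cut into thin cryosections, 1 nuclear slice is isolated by laser microdissection, and its DNA is amplified and sequenced to learn which loci the slice contained. All 74 libraries came from the mouse embryonic stem cell line 46C (strain 129/Ola), which carries a Sox1-GFP knock-in and derives from E14tg2a, grown with serum and LIF and moved to serum-free medium before harvest. They form 1 group with no treatment or control, and each slice came from a different cell of a line that is 1 clone, so that p-values measure the spread between slices and not between cultures.

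In an interphase nucleus each chromosome fills a compact territory, and loci on the same chromosome are on average closer to each other than to loci of other chromosomes, even when a large part of the chromosome lies between them. A thin slice that passes through a territory is therefore likely to carry several distant parts of the same chromosome. Mouse autosomes are acrocentric, with the centromere at the low-coordinate end, so each consists of essentially 1 long arm running from the proximal to the distal end. The maternal and paternal copies cannot be told apart in these calls, and a slice may cut either or both.

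Libraries held from 14 to 8423 positive windows, or 0.0205% to 12.4% of all windows. Of the member windows, 5.58% ± 3.27 (SD, n = 74) were positive in a library, with a range of 0.0246% to 12.9%. Among the member windows 762 were positive in no library. The library names begin with f13 (34 libraries) or f14 (40 libraries), and results are also given within each prefix because the labels do not say what it stands for. With 74 libraries, a locus pair seen in 0 slices could still be present in up to 4.05% of them, which covers counting error only.

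In all, 4 member windows were left out of every comparison because each was positive in more than 15 libraries, the limit chosen. The window chr2:98480001-98520000 was positive in all 74 libraries, chr6:103560001-103600000 in 60, and chr2:167840001-167880000 and chr3:93600001-93640000 in 16 each. Only the first 2 of these are far from the kept windows, of which the highest were positive in 15. A stretch of the repeat in the most extreme of these windows is given here because no single-copy locus is present in every thin slice. It holds a tandem repeat, in which up to 97.2% of the bases equal those 251 bases further on, 96.6% those 234 bases on and 96.7% those 120 bases on. The stretch of 251 bases given begins and ends with the same 17 bases, and so already repeats after 234. The stretch at chr2:98506940-98507190 (NCBIM37, the sequence of mm9, plus strand) reads, 5′ to 3′ and with no base marked:
chr2 repeat: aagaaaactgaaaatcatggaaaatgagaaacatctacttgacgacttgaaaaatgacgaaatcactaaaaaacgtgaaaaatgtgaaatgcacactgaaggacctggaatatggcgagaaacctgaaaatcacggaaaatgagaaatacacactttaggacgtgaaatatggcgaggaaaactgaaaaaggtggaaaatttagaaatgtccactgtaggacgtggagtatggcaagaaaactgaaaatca
As background, this is the sequence type of the mouse major satellite, whose bulk lies beside the centromeres of most chromosomes and not at this position. The window also overlaps the predicted coding genes Gm10801 and Gm10800. The chromosome 6 window lies in the region of Chl1, a neural cell adhesion gene, and the chromosome 3 window overlaps Tdpoz4 and Tdpoz3.

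Among the 20331 windows that were kept, the most often positive lay just inside the limit. On chromosome 7 the most often positive was chr7:29560001-29600000, in 15 libraries, over Sirt2 (a deacetylase), Rinl and Hnrnpl (an RNA-binding protein), followed by chr7:30000001-30040000 in 14, over Kcnk6, Yif1b and 2200002D01Rik. On chromosome 3 these were chr3:93560001-93600000 in 15 libraries, next to the window left out and over Gm5773, and chr3:95120001-95160000 in 13, over Lass2 and the histone methyltransferase Setdb1. On chromosome 5 the window over the ubiquitin ligase Ube3c at chr5:29880001-29920000 was positive in 13 libraries and that over Mrpl33 and Bre at chr5:32000001-32040000 in 12. On chromosome 6 the leading window, chr6:37760001-37800000, overlapped no coding gene and was positive in 13, and the window over Capza2 at chr6:17560001-17600000 was positive in 12. Chromosome 4 was led by chr4:145120001-145160000 over Gm13225 and Gm13242 with 12 libraries and by chr4:34880001-34920000 over Mob3b with 11. Chromosome 2 was led by chr2:13600001-13640000 over St8sia6 and by chr2:21240001-21280000, which overlapped no coding gene, with 12 libraries each.

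Individual chromosomes were seldom evenly represented in a slice. The share of a chromosome's member windows positive in a library ranged from 0 to 24.7% on chromosome 2 (median 3.19%), to 27% on chromosome 3 (median 3.49%), to 34.4% on chromosome 4 (median 3.06%), to 24.1% on chromosome 5 (median 3.21%), to 29.5% on chromosome 6 (median 4.40%), and to 22.5% on chromosome 7 (median 2.98%). The SD between libraries was larger than the mean on each of the 6 chromosomes, for example 5.98% ± 6.59 (SD, n = 74) on chromosome 2 and 4.60% ± 4.78 on chromosome 7. The highest coverage was in library f14b1 for chromosome 2, f14d4 for chromosome 3, f13a5 for chromosome 4, f14b3 for chromosome 5, f14c5 for chromosome 6 and f13g4 for chromosome 7. A different slice was thus the richest in each of the 6 chromosomes.

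Detection differed between the chromosomes, which matters for any comparison with trans pairs. Chromosome 7 was the least detected, at 4.60% of windows per library, and held 372 of the windows that were never positive (11.5% of its members, against 1.17% to 4.89% on the other chromosomes). Of these, 175 had no known base in the assembly and 42 (11.3%) overlapped an olfactory or vomeronasal receptor gene, as did 7.29% of the detected windows of chromosome 7. They were concentrated in chr7:33000001-43000000, with 108, and in chr7:43000001-53000000, with 85. Chromosome 4 had the second lowest detection, at 4.96%, and 162 never-positive windows.

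To learn whether distant parts of a chromosome share slices, co-segregation of windows 40 to 130 Mb apart (the percent of libraries with both windows positive) was divided by that of the same windows paired with members of the other 5 chromosomes. The trans value rests on the detection of the partner chromosomes, so a poorly detected chromosome has fewer cis than trans pairs before any folding. A second ratio was therefore computed after seeing the data, in which every pair was matched for the detection of its own windows over all libraries, and both are given. Tests were two-sided sign-flip permutation tests over the 74 libraries, adjusted by Benjamini-Hochberg over the 6 chromosomes, and errors are jackknife SEs. Such a test assumes that, without any effect, an excess of a given size is as likely to be positive as negative, which was not tested.

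Over all 17070062 pairs of windows, cis pairs shared a slice in 0.577% of libraries against 0.362% for trans pairs. The pooled ratio was 1.60 ± 0.0920 and the matched ratio 1.56 ± 0.0916 (permutation p = 1e-05 for both, the smallest that the permutations can give). Cis exceeded trans in 62 of 74 libraries, or in 63 with matched detection. The pooled ratio was 1.51 among the f13 and 1.68 among the f14 libraries.

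Chromosomes 2, 3 and 5 stood above trans by both measures. On chromosome 2 the ratio was 1.69 ± 0.231 (adjusted permutation p = 0.00846) and the matched ratio 1.55 ± 0.212 (0.0192). On chromosome 3 it was 1.67 ± 0.195 (adjusted permutation p = 0.0115), with a matched ratio of 1.59 ± 0.185 (0.0192). Chromosome 5 had the highest ratio with trans as measured, 1.83 ± 0.247 (adjusted permutation p = 0.00846), and a matched ratio of 1.70 ± 0.229 (0.0192). Libraries were also weighted equally, by dividing each by the square of its coverage. Here and below, this setting also left out the 5 libraries under 1% coverage. The ratio of chromosome 5 was then 2.86 (adjusted permutation p = 0.00138), whereas that of chromosome 2 was 1.80 and no longer passed (0.0603). Put differently, when a chromosome 5 window was in a slice, a window 40 to 130 Mb away on the same chromosome was there in 11.2% of cases and a trans window in 6.14%. The corresponding shares were 11.1% and 6.55% on chromosome 2 and 10.8% and 6.5% on chromosome 3. None of these 3 calls was lost when any 1 library was left out, but within the 34 f13 libraries alone none passed, at 1.40, 1.43 and 1.78 (adjusted permutation p = 0.257 for each), whereas the 40 f14 libraries gave 1.93, 1.94 and 1.87 (0.0395 for each).

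Chromosomes 4, 6 and 7 did not pass against trans by either measure. Chromosome 4 had a ratio of 1.76 ± 0.450 (adjusted permutation p = 0.121) and a matched ratio of 2.05 ± 0.523 (0.0693), the highest matched value and the least certain. A single slice, f13a5, held 27.4% of its cis pairs, and without it the ratio was 1.41 and the matched ratio 1.77. Leaving out f14c4 instead raised the matched ratio to 2.22 with an adjusted permutation p of 0.0380. With trans as measured, the ratio of chromosome 4 was 2.14 within f13 and 1.30 within f14 (adjusted permutation p = 0.257 and 0.620). That of chromosome 6 was 1.22 and 1.64 (0.647 and 0.113). Chromosome 6 had a ratio of 1.47 ± 0.226 (adjusted permutation p = 0.0923) and a matched ratio of 1.30 ± 0.201 (0.183), but passed with 200 kb windows at 1.45 (0.0446) and with libraries weighted equally at 1.75 (0.0313).

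On chromosome 7 the comparison with the other chromosomes differed between the measures. Its cis pairs were as frequent as its trans pairs, at 0.301% and 0.302% (ratio 0.997 ± 0.154, adjusted permutation p = 0.986), and this was 0.685 ± 0.209 below the mean excess of the other 5 chromosomes (adjusted permutation p = 0.00726, lower in 52 of 74 libraries). The number of libraries alone does not set it apart, since each chromosome was below the mean of the rest in 48 to 59 libraries. With matched detection the ratio rose to 1.27 ± 0.196 and the difference from the other 5 shrank to -0.371 ± 0.251 (adjusted permutation p = 0.601), so that chromosome 7 was not distinguished from the others. Restricting the analysis to windows positive in at least 1 library gave a difference of -0.542 (adjusted permutation p = 0.102). The difference passed at -0.543 with all other autosomes as trans (adjusted permutation p = 0.0406) and at -0.522 with 200 kb windows (0.0191). With libraries weighted equally it passed at -0.725 (0.0299). Why the difference moved between these settings was not tested. Within the prefixes the difference was -0.493 for f13 (0.546) and -0.847 for f14 (0.0421). The ratio of chromosome 7 with trans as measured was 1.10 for f13 and 0.889 for f14 (adjusted permutation p = 0.647 and 0.632). No other chromosome differed from the rest, with an adjusted permutation p of 0.709 for each.

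**Figure D1:**
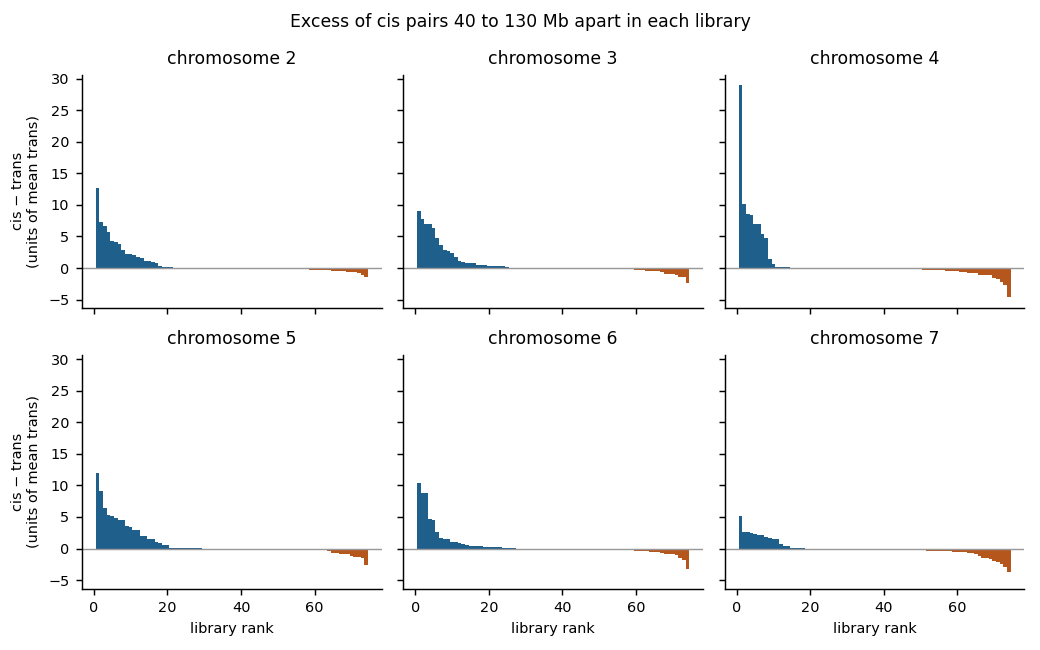
Per-library excess of cis over trans co-segregation for windows 40 to 130 Mb apart, in units of the mean trans value of the chromosome, with the 74 libraries ordered by value. A minority of slices carries the positive excess on every chromosome, and on chromosome 4 the single slice f13a5 reaches 29 units.

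The excess was not spread evenly over slices. It was above 0 in 22 libraries on chromosome 2, 27 on chromosome 3, 17 on chromosome 4, 29 on chromosomes 5 and 6, and 20 on chromosome 7. The 5 slices with the most cis pairs held 42.5% of them on chromosome 2, 48.2% on chromosome 3, 64.7% on chromosome 4, 44.1% on chromosome 5, 49.1% on chromosome 6 and 43.7% on chromosome 7. These slices were picked for their cis pairs, so that their lower share of the trans pairs (21.8% to 32.9%) is partly built in. With the 6 chromosomes pooled, the 5 slices with the most cis pairs held 24.8% of the cis and 25.2% of the trans pairs. The median library had an excess of -0.0433 (chromosome 4) to -0.00249 (chromosome 5) in units of the mean trans value, close to 0 on each chromosome. With the 6 chromosomes pooled, the median library had an excess of 0.391.

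Co-segregation was then followed in 10 Mb steps of distance. Of the 54 combinations of chromosome and distance, 38.9% were above trans at an adjusted permutation p under 0.05, and 24.1% with matched detection. The bins above trans numbered 8 of 9 on chromosome 2, 4 on chromosome 3, 2 on chromosome 4, 6 on chromosome 5, 1 on chromosome 6 and 0 on chromosome 7, and with matched detection 3, 3, 2, 4, 1 and 0. Windows 40 to 50 Mb apart had matched ratios of 1.81 ± 0.263 on chromosome 2, 1.93 ± 0.268 on chromosome 3, 2.54 ± 0.556 on chromosome 4, 1.81 ± 0.252 on chromosome 5, 1.61 ± 0.203 on chromosome 6 and 1.52 ± 0.272 on chromosome 7. The first 5 of these passed (adjusted permutation p from 0.0286 to 0.0410) and that of chromosome 7 did not (0.121).

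**Figure D2:**
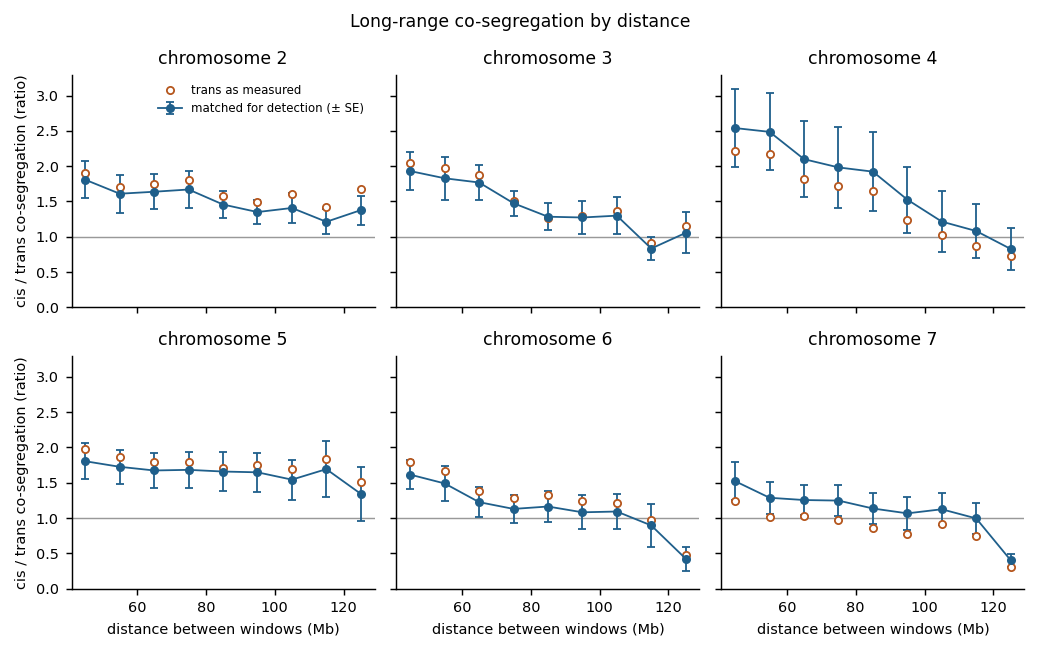
Cis over trans co-segregation by distance between windows (Mb), one panel per chromosome, with filled points and jackknife SE for pairs matched for detection and open points for trans as measured. The ratio stays above 1 at all distances on chromosomes 2 and 5, and falls below 0.5 at 120 to 130 Mb on chromosomes 6 and 7.

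The decay with distance differed in appearance between chromosomes. On chromosome 4 the matched ratio fell from 2.40 ± 0.544 at 40 to 70 Mb to 1.11 ± 0.375 at 100 to 130 Mb (adjusted permutation p = 6e-05). On chromosome 3 it fell from 1.85 ± 0.266 to 1.10 ± 0.191 (0.00831). With trans as measured the fall on chromosome 3 was 0.792, and it was 0.497 without the slice f14d4 (adjusted permutation p = 0.0239). The fall was not significant on chromosome 5, at 1.74 ± 0.243 and 1.57 ± 0.285 (adjusted permutation p = 0.606), nor on chromosome 2, at 1.69 ± 0.254 and 1.33 ± 0.182 (0.0986). Chromosome 6 went from 1.46 ± 0.216 to 0.982 ± 0.235 (adjusted permutation p = 0.0986; with trans as measured the fall passed without f13b4 or f13c1, at 0.665 without f13b4) and chromosome 7 from 1.37 ± 0.227 to 1.01 ± 0.195 (0.129). Whether the fall itself differed between chromosomes was not tested.

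At the greatest distance, 120 to 130 Mb, pairs were less frequent than trans on chromosomes 6 and 7. These pairs join the proximal with the distal end of the member range. On chromosome 7 they shared a slice in 0.0996% of libraries against 0.324% in trans, a ratio of 0.308 ± 0.0717 (adjusted permutation p = 0.00054) and a matched ratio of 0.402 ± 0.0936 (0.0054), with 10 of 74 libraries above matched trans. On chromosome 6 the ratio was 0.475 ± 0.192 (adjusted permutation p = 0.0416) and the matched ratio 0.423 ± 0.172 (0.0410), with 6 of 74 libraries above. The bin is small, at 28441 pairs on chromosome 7 and 13203 on chromosome 6. At this distance the matched ratio was 0.827 ± 0.302 on chromosome 4, 1.06 ± 0.292 on chromosome 3, 1.34 ± 0.381 on chromosome 5 and 1.38 ± 0.206 on chromosome 2, and none of these 4 passed. With trans as measured chromosome 2 passed, at 1.67 ± 0.249 (adjusted permutation p = 0.0328), and chromosome 4 had 0.721 ± 0.264.

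At shorter distances all 6 chromosomes showed the steep part of the decay. Matched ratios for windows up to 1 Mb apart ran from 4.40 ± 0.303 on chromosome 6 to 6.48 ± 0.660 on chromosome 4, with 4.97 ± 0.413 on chromosome 7. At 4 to 10 Mb they ran from 2.08 ± 0.220 to 3.17 ± 0.521 and at 20 to 40 Mb from 1.64 ± 0.214 to 2.80 ± 0.549, on the same chromosomes 6 and 4. In none of the 30 comparisons of a chromosome with the other 5 at these distances did the permutation test pass (adjusted p of 0.718 or more, and no unadjusted p under 0.05). Chromosome 7 lay within the SE of its difference from the others at each of these distances with matched detection. With trans as measured its ratio was the lowest at each, with differences of -1.10 ± 0.712 up to 1 Mb and -0.542 ± 0.353 at 10 to 20 Mb. At 20 to 40 Mb the difference was -0.624 ± 0.330 (unadjusted permutation p = 0.0551). No comparison passed there either (adjusted permutation p of 0.883 or more). These short-distance values were added after seeing the data.

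To locate the long-range signal along each chromosome, 310 pairs of 10 Mb blocks were compared with trans. The block starts lay 40 to 130 Mb apart, so that some windows of a pair were under 40 Mb apart. At an adjusted permutation p under 0.05, 0 pairs (0%) were called, while 71 (22.9%) were above trans at an unadjusted p under 0.05 and 8 below (7 of them on chromosome 7). With matched detection 68 were above and 1 below, on chromosome 6. Larger blocks of 20 Mb, chosen by the same distance between starts, gave 23 called pairs of 80. These hold more windows under 40 Mb apart, so that more than the block size changed. The ratio was above 1 in 275 pairs, and in 284 with matched detection. By chromosome these were 75 of 75 on chromosome 2, 52 of 55 on chromosome 3, and 41, 45, 38 and 24 of 45 on chromosomes 4, 5, 6 and 7, with median ratios of 1.74, 1.61, 1.82, 1.75, 1.46 and 1.01.

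**Figure D3:**
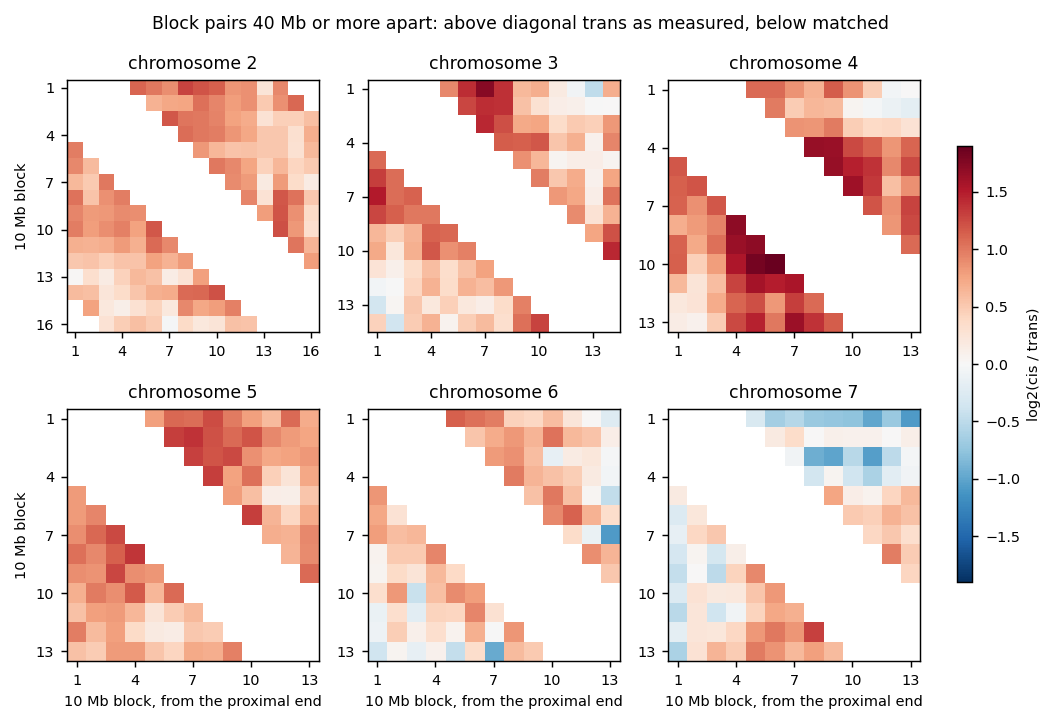
Log2 of the cis over trans ratio for pairs of 10 Mb blocks, numbered from the proximal end of the member range, with trans as measured above the diagonal and matched for detection below it. Red is cis above trans. Chromosome 7 changes from mixed to mostly red below the diagonal (33 of 45 pairs above 1), and no single pair passed the adjusted test.

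The highest pair of each chromosome with trans as measured is given here as a description, since it is the maximum of 45 to 75 pairs. On chromosome 3 the block chr3:13000001-23000000 (36 protein-coding genes) and the block chr3:73000001-83000000 (39 genes) shared slices at 1.49% against 0.452% in trans, a ratio of 3.3 ± 1.04 (matched 2.85 ± 0.897). On chromosome 4, chr4:43000001-53000000 (108 genes) and chr4:83000001-93000000 (62 genes) had a ratio of 3.15 ± 0.656 (matched 3.25 ± 0.677). Chromosome 5 peaked at 2.59 ± 0.519 (matched 2.13 ± 0.426) between chr5:23000001-33000000 (126 genes) and chr5:73000001-83000000 (52 genes). Chromosome 2 peaked at 2.43 ± 0.713 (matched 2.05 ± 0.602) between chr2:13000001-23000000 (44 genes) and chr2:83000001-93000000 (304 genes). Chromosome 6 peaked at 2.20 ± 0.572 (matched 1.79 ± 0.466) between chr6:13000001-23000000 (31 genes) and chr6:53000001-63000000 (75 genes), and chromosome 7 at 1.96 ± 0.845 (matched 2.47 ± 1.07) between chr7:83000001-93000000 and chr7:123000001-133000000 (98 genes each). The pairs of chromosomes 6 and 7 did not pass even without adjustment (unadjusted permutation p = 0.0511 and 0.279). With matched detection other pairs were the highest on chromosomes 2, 4, 5 and 6, at 2.31, 3.69, 2.57 and 1.91, while those of chromosomes 3 and 7 were the pairs given.

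With trans as measured, the lowest pair of each chromosome included the first, last or next to last block of the member range. On chromosomes 2, 5 and 6 the other block lay further inside. Whether end blocks differed from the rest was not tested. On chromosome 7 the first block (231 genes) and the last, chr7:133000001-142520000 (165 genes), had a ratio of 0.472 ± 0.118 (unadjusted permutation p = 0.00132, adjusted 0.113), and a matched ratio of 0.661 ± 0.164 (unadjusted permutation p = 0.0685). On chromosome 6, chr6:73000001-83000000 (25 genes) and chr6:133000001-139480000 (79 genes) had 0.475 ± 0.217, and 0.515 ± 0.236 with matched detection. The lowest pair of chromosome 3 joined its first block with chr3:133000001-143000000 at 0.713 ± 0.194 (0.787 ± 0.214 matched). That of chromosome 4 joined chr4:23000001-33000000 with chr4:133000001-143000000 at 0.875 ± 0.424, and turned to 1.06 ± 0.514 with matched detection. On chromosomes 2 and 5 the lowest pairs were above 1 with trans as measured, at 1.11 ± 0.297 and 1.08 ± 0.279. With matched detection the lowest ratio of any pair was 0.989 on chromosome 2, 1.06 on chromosome 4 and 1.11 on chromosome 5, so that all 45 pairs of chromosome 4 were then above 1 and 1 of the 75 pairs of chromosome 2 was below.

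Gene-rich and gene-poor parts of a chromosome tend to occupy different nuclear environments, known as the A and B compartments. Bins of 1 Mb were therefore split at the median number of protein-coding gene starts of their chromosome, which gave means of 12.8 to 23.4 genes in rich and 1.67 to 3.01 in poor bins. Pairs of like bins (rich with rich, poor with poor) exceeded mixed pairs by 0.0645 ± 0.0265 in ratio over the 6 chromosomes (permutation p = 0.0122), and by 0.0498 ± 0.0257 with matched detection (0.0503). Chromosome 5 had the only adjusted call among the 6, at 0.165 ± 0.0486 (adjusted permutation p = 0.00216) and 0.128 ± 0.0459 matched (0.0223). Its ratios were 2.01 for rich with rich, 1.79 for poor with poor and 1.74 for mixed pairs. The call was lost with the top and bottom tertiles of bins (0.184, adjusted permutation p = 0.210) and with GC content in place of genes (0.208, 0.170). Rich pairs did not differ from poor pairs (0.0657 ± 0.0780 over the 6 chromosomes, permutation p = 0.409). The preference for like bins was thus small beside the ratio of 1.56 to 1.66 that all 3 classes had.

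The extent of a territory within a slice was measured in libraries where a chromosome was cut, meaning that at least 1% of its member windows were positive after isolated windows had been set aside. Chromosome 2 was cut in 44 libraries, chromosomes 3 and 4 in 42, chromosome 5 in 41, chromosome 6 in 50 and chromosome 7 in 45. At least 1 of the 6 was cut in 67 libraries, with 5 of the 6 cut in 19 libraries and all 6 in 8. The cut chromosomes reached far. The distance from the first to the last positive window had a median of 146.7 Mb on chromosome 2 (92.4% of the range), 114.3 Mb on chromosome 3, 81.6 Mb on chromosome 4, 114.2 Mb on chromosome 5, 100.9 Mb on chromosome 6 and 109.9 Mb on chromosome 7.

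The span from the 10th to the 90th percentile of positive windows, which single stray windows affect less, had a median of 59.8% of the member range over the 264 cases. It was under 25% in 43 cases and over 75% in 70. In Mb, the lowest, median and highest values were 3.36, 111.7 and 155.6 on chromosome 2, 10.4, 75.8 and 128.7 on chromosome 3, and 8.64, 64.8 and 116.6 on chromosome 4. They were 5.70, 84.9 and 121.6 on chromosome 5, 4.13, 79.1 and 118.4 on chromosome 6, and 6.36, 71 and 118.3 on chromosome 7. Both compact and extended cuts thus occurred on every chromosome, and the ranges overlapped almost entirely. Within libraries no chromosome differed from the other cut chromosomes, with differences from -7.57 ± 3.78 percentage points on chromosome 4 (adjusted permutation p = 0.319) to 6.42 ± 4.29 on chromosome 2 (0.425).

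**Figure D4:**
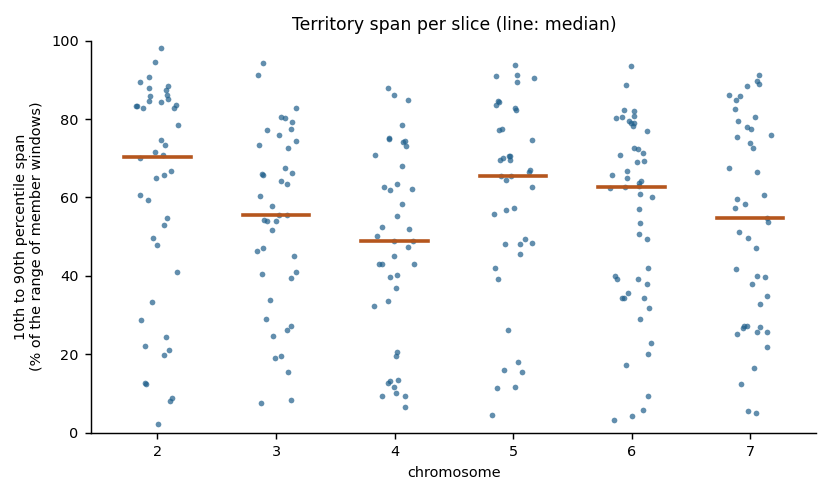
Span from the 10th to the 90th percentile of positive windows as a percent of the member range, one point per library in which the chromosome was cut, with the median as a line. Values run from under 10% to over 87% on each chromosome, and medians lie between 48.9% on chromosome 4 and 70.4% on chromosome 2.

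The named slices show how different these cuts can be. In f13d1 the 46 positive windows of chromosome 2 lay within 4.32 Mb, whereas in f14a6 the 165 positive windows spread over 157.3 Mb in 18 stretches, with a gap of 68.8 Mb inside. On chromosome 6, f14e2 had 85 positive windows within 10.2 Mb and f13c1 had 101 windows over 119.8 Mb, of which 102.1 Mb was a single gap, so the slice held both ends and little between. The shortest spans of chromosomes 3, 4, 5 and 7 were in f13b4, f14c5, f14f6 and f14b3, and the longest in f13f6, f14f5, f13g4 and f14a6. Coverage and span were not the same thing. The slice f13a5, with 29.3% of chromosome 4 after isolated windows were set aside, had a span of 98.4 Mb in 90 stretches, whereas f14f5, with 2.11%, had 116.6 Mb in 10 stretches.

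A cut chromosome was usually seen as many short stretches. The median number of stretches, in which positive windows are separated by at most 200 kb, was 34, 30, 21.5, 33, 25 and 21 on chromosomes 2 to 7. The longest stretch had a median of 1.68 Mb on chromosome 2 and 1.04 Mb on chromosome 7, and none exceeded 6.96 Mb, reached on chromosome 3 in f14d4. The largest gap had a median of 19 Mb on chromosome 4 to 31.9 Mb on chromosome 2. Span rose with coverage over libraries on chromosomes 2 to 6, with Pearson's r from 0.345 to 0.435 (adjusted permutation p from 0.0117 to 0.0155) and Spearman's rho from 0.310 to 0.506 (0.00456 to 0.0350). Leaving out the 2 most extreme libraries by coverage gave r of 0.324 to 0.464. On chromosome 7 r was 0.0813 (adjusted permutation p = 0.606) and rho 0.132 (0.386).

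Whether both sections of a chromosome are cut together was asked by splitting the members of each chromosome into a proximal and a distal section of equal size, of 1580 to 1984 windows. Both sections were cut (at least 1% of windows positive after isolated windows were set aside) in 30 libraries on chromosome 2, 28 on chromosome 3, 26 on chromosome 4, 31 on chromosome 5, 35 on chromosome 6 and 25 on chromosome 7. When the opposite section was taken from another of the 6 chromosomes in the same slice, the mean numbers were 23, 21.1, 22, 21.3, 24.6 and 21.4. The difference passed on chromosomes 2, 3, 5 and 6 (adjusted permutation p = 0.0119, 0.0158, 0.00246 and 0.00321) and did not on chromosomes 4 and 7 (0.181 and 0.194). Only chromosome 5 passed at each of the other settings tried. Chromosome 3 was lost with isolated windows kept (adjusted permutation p = 0.163), and at limits of 0.5% (0.0536) and 5% (0.168). Chromosome 2 was lost at 0.5% (adjusted permutation p = 0.0536) and chromosome 6 at 5% (0.095).

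The libraries with 1 section only were a minority of those with a cut. The proximal section alone was cut in 7 libraries on chromosomes 2 and 3, 8 on chromosomes 4 and 5, 12 on chromosome 6 and 15 on chromosome 7. The distal section alone was cut in 11, 10, 12, 4, 8 and 9. Of the libraries that cut either section, both were cut in 72.1% on chromosome 5, in 51% on chromosome 7, and in 56.5% to 63.6% on the others.

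**Figure D5:**
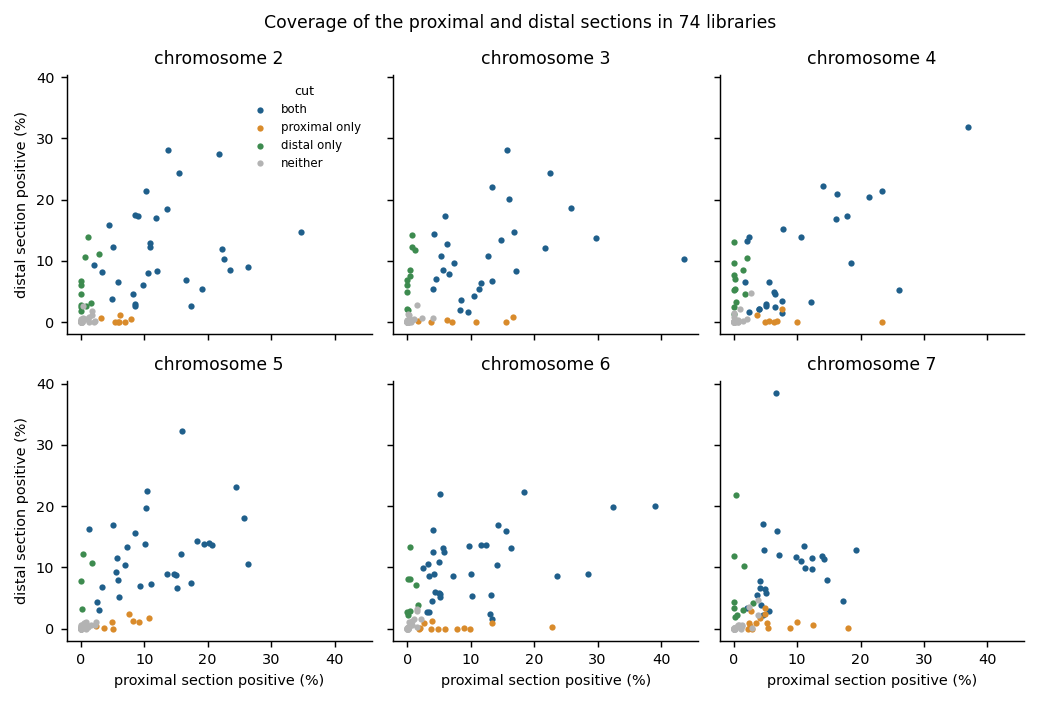
Percent of the windows of the proximal and distal section of each chromosome that were positive in each of the 74 libraries, coloured by which sections were cut. Isolated windows count towards the plotted percents but not towards a cut. Points with both sections cut extend along the diagonal, and most slices with 1 section only lie towards the axes. Such slices numbered 24 on chromosome 7 and 12 on chromosome 5.

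Measured by coverage, the product of the coverages of the sections relative to sections of other chromosomes was 1.71 ± 0.247 on chromosome 2 (adjusted permutation p = 0.00562), 1.75 ± 0.191 on chromosome 3 (0.00562), 2.02 ± 0.488 on chromosome 4 (0.0529), 1.94 ± 0.251 on chromosome 5 (0.0027), 1.60 ± 0.227 on chromosome 6 (0.0283) and 1.14 ± 0.153 on chromosome 7 (0.362). With matched detection these became 1.57 (0.0191), 1.68 (0.0122), 2.32 (0.0325), 1.80 (0.00642), 1.42 (0.0633) and 1.43 ± 0.192 (0.0405), so that the calls of chromosomes 4, 6 and 7 each changed sides. Within the 34 f13 libraries alone none of the 6 passed, with 1.37, 1.56 and 1.92 on chromosomes 2, 3 and 5 (adjusted permutation p = 0.181 for each) and 1.27 on chromosome 6 (0.505), whereas the 40 f14 libraries gave 1.99, 1.98 and 1.96 (0.0316 for each) and 1.86 (0.0356). The call of chromosome 6 was also lost without f13d1, f14d7 or f14g5, one at a time (adjusted permutation p of at most 0.0527). That of chromosome 4 was gained without any 1 of 15 libraries (down to 0.0379), and its ratio was 1.64 without f13a5. The sections of chromosome 4 gave 2.38 within f13 and 1.54 within f14 (adjusted permutation p = 0.181 and 0.399). With the central 40 Mb left out, chromosome 3 had 1.37 (adjusted permutation p = 0.204) and chromosome 6 had 1.43 (0.18).

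The coverages of the sections rose together over the 74 libraries. Pearson's r was 0.578 on chromosome 2, 0.566 on chromosome 3, 0.666 on chromosome 4, 0.688 on chromosome 5, 0.528 on chromosome 6 and 0.381 on chromosome 7 (adjusted permutation p = 1.2e-05 for the first 5 and 0.00165 for chromosome 7). Spearman's rho was 0.634, 0.607, 0.523, 0.779, 0.533 and 0.604 (adjusted permutation p of at most 2e-05). Leaving out the 2 most extreme libraries gave r of 0.405 to 0.690. Within the prefixes r was 0.379 (f13, chromosome 7) to 0.831 (f13, chromosome 4). Both sections share the slice and its depth, and so do sections of different chromosomes, for which the median r was between -0.0200 and 0.161 and the highest 0.376.

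Individual slices show the imbalance that remains. The slice f13a5 carried 36.9% of the proximal and 31.9% of the distal section of chromosome 4. In contrast f13g4 carried 6.61% of the proximal and 38.5% of the distal section of chromosome 7, and f14d4 43.6% of the proximal and 10.3% of the distal section of chromosome 3. In f14b1 the sections of chromosome 2 had 34.7% and 14.7%, in f14c5 those of chromosome 6 had 39% and 20%, and in f14b3 those of chromosome 5 had 15.9% and 32.2%.

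The same question was put to well-known genes far apart on 1 chromosome. A gene counted as present in a slice if any window within 0.5 Mb of its start was positive, where the start was the median of its coding transcripts. Of 183 pairs of these genes on different chromosomes, 2.73% were found together more often than their detection gives at an unadjusted p under 0.05 (Fisher's exact test, two-sided). Of the 16 pairs on the same chromosome and 40 to 130 Mb apart, 6 were, and 14 were above the number that detection gives. The median of observed over expected was 1.51 for these and 1.04 for the pairs on different chromosomes. With adjustment over all 199 pairs, 0 passed (lowest adjusted p 0.0743 by Fisher's exact test). Pairs on different chromosomes reached nearly as far: Dnmt3b on chromosome 2 and Lin28a on chromosome 4, named after their values were seen, shared 8 slices where detection gives 3.04 (exact p = 0.00134, adjusted 0.0886).

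On chromosome 5, Shh (chr5:28783355-28793641), the sonic hedgehog ligand, was present in 26 slices and Kit (chr5:75970941-76052747), a receptor tyrosine kinase of stem and germ cells, in 18. They shared 13 slices where detection gives 6.32, at a distance of 47.2 Mb (exact p = 0.000373). Shh and the T-box factor Tbx3 (chr5:120120678-120134733), 91.3 Mb apart, shared 10 slices where detection gives 4.92 (exact p = 0.00364). Kit and Tbx3 shared 6 against 3.41 (exact p = 0.0903).

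On chromosome 2, Pax6 (chr2:105509053-105543317), a regulator of eye and neural development, was present in 18 slices and the DNA methyltransferase gene Dnmt3b (chr2:153475186-153513466) in 15. They shared 9 slices where detection gives 3.65 (exact p = 0.000964). Pax6 and Sall4 (chr2:168573832-168593443), a zinc finger factor of pluripotent cells, shared 11 against 6.08 (exact p = 0.00881). Hoxd9, a homeobox gene of the Hoxd cluster, shared 9 slices with Sall4 against 5.07 (exact p = 0.0298) and 4 with Dnmt3b against 3.04 (exact p = 0.488).

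The 6 pairs on the same chromosome with an unadjusted exact p under 0.05 involved Sall4, Dnmt3b, Pax6, Hoxd9, Shh, Kit, Tbx3, Snrpn and Wee1. Sox2, Klf4, Lin28a and Nanog were in none of these pairs. Sox2 (chr3:34548927-34551383) was present in 17 slices and shared 6 with the GTPase gene Nras against 4.14, and 6 with the Wnt effector Lef1 against 3.91. On chromosome 4, Klf4 and the let-7 regulator Lin28a shared 6 slices against 4.05, and the cell cycle inhibitor gene Cdkn2a and Lin28a 6 against 4.26. Nanog (chr6:122657507-122664651) was present in 23 slices and Hoxa9 in 16, and they shared 4 against 4.97. These 5 pairs had exact p-values from 0.197 to 0.762.

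Chromosome 7 again gave mixed values. The imprinted gene Snrpn (chr7:67127388-67285105) and the mitotic kinase gene Wee1 (chr7:117265864-117285626) shared 9 slices where detection gives 5.05 (exact p = 0.0317). The myeloid and adipocyte factor Cebpa and Wee1 shared 5 against 5.74 (exact p = 0.775), Cebpa and the growth factor receptor Fgfr2 6 against 4.39 (exact p = 0.342), and Snrpn and Fgfr2 5 against 3.86 (exact p = 0.510). These counts depend on the size of the neighbourhood, with 3 of the 16 pairs under an unadjusted p of 0.05 at 0.25 Mb and 5 at 1 Mb, beside 4 and 9 of the 183 pairs on different chromosomes.

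Finally, the large autosomes were set beside chromosomes 1 and 8 to 18, cut to the same margins, at the distances of 40 to 60 Mb that those chromosomes share. Trans was here all other autosomes, and not the other 5 of chromosomes 2 to 7, so the ratios are not the same measure as those above. The ratio was 1.73 ± 0.0923 for chromosomes 2 to 7 and 1.65 ± 0.0810 for the others, a difference of 0.0774 ± 0.143 (permutation p = 0.596), with the large autosomes higher in 39 of 74 libraries. With matched detection the values were 1.75 ± 0.0957 and 1.56 ± 0.0729, a difference of 0.187 ± 0.139 (permutation p = 0.184). Chromosome 7 had the lowest ratio of all 18 chromosomes at 1.17 ± 0.196 with trans as measured, just below chromosome 17 at 1.23 ± 0.202, from which it did not differ beyond its error. Chromosome 4 had the highest, 1.97 ± 0.410, next to chromosome 1 at 1.93 ± 0.2. With matched detection chromosome 7 was at 1.47 ± 0.245 and no longer the lowest, chromosome 17 was the lowest at 1.24 ± 0.204, and chromosome 4 was again the highest at 2.28 ± 0.473.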

How the data were processed

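The deposited table holds the authors' binary call of each 40 kb mm9 window as positive or negative in each of the 74 libraries (1, present; 0, absent). This other unit is no read count, so the depth per library is unknown, and its part in the share of positive windows was not tested. The submitters' processing notes name Bowtie2 2.1 and mm9. The study's methods give duplicate removal and windows called by GAMtools from a set minimum of reads for its multiplex libraries, and whether this holds for single profiles is not given in the sources used here. Chromosome lengths equalled those of NCBIM37, and genes came from GENCODE vM1. Python 3.11.15, NumPy 2.4.6, SciPy 1.17.1 and pandas 2.3.3 were used.

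Members and gene lists were chosen with earlier results of these data known. Windows positive in over 15 libraries were left out. Sign-flip permutation tests used 100000 resamples, and the threshold was 0.05. Named were the landmark genes, the extreme block pairs and libraries of each chromosome, and its most often positive windows. Scripts were tested on simulated tables: without shared folding, the ratio with trans as measured followed the detection of the chromosome, while the matched ratio returned 1. These simulated tables do not show why chromosome 7 was low in the data, which was not tested. Alternatives covered windows, libraries, prefixes, cut-offs, weights and trans scaling.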

Additional observations from a re-analysis of the deposited data

Results flagged for a closer look

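Outside every comparison of the report, 4 member windows were positive in more than 15 libraries. The window chr2:98480001-98520000 was positive in 74 of 74 libraries, and chr6:103560001-103600000 in 60. The windows chr2:167840001-167880000 and chr3:93600001-93640000 were positive in 16 libraries each, 1 above the highest kept windows, at 15. With these windows kept, the pooled ratio was 1.59.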

How the results depend on the processing

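The pooled long-range ratio stayed past the threshold under each of the 11 alternatives run, from 1.51 to 1.85. With f13 libraries only, 0 of 6 chromosomes passed the long-range test in place of 3. The ratios were 1.40, 1.43 and 1.78 on chromosomes 2, 3 and 5, and the sections of chromosomes 2, 3, 5 and 6 gave 1.37, 1.56, 1.92 and 1.27, all past the threshold with 74 libraries and not with these 34. With libraries weighted equally, and the 5 under 1% coverage left out, the long-range ratio of chromosome 2 was 1.80 and did not pass. That of chromosome 5 then rose to 2.86, that of chromosome 6 passed at 1.75, and the sections of chromosomes 4 and 7 passed at 2.08 and 1.46. With 200 kb windows chromosome 6 passed at 1.45. The difference of chromosome 7 from the other 5 no longer passed with windows positive in at least 1 library (-0.542), in f13 (-0.493), with trans scaled by detection (-0.385) or with each pair matched for detection (-0.371), the last chosen after seeing the data. Scaled by detection, the sections of chromosome 4 passed at 2.32, those of chromosome 7 at 1.43, and those of chromosome 6 did not at 1.42. Matched pairs gave 2.32, 1.43 and 1.42. The sections of chromosome 4 passed at 2.06 with windows positive in at least 1 library. The sections of chromosome 6 did not pass with isolated windows set to negative (1.62), with all other autosomes as trans (1.51) or without the central 40 Mb (1.43), nor did those of chromosome 3 without the central 40 Mb (1.37). The fall from near to far on chromosome 6 passed with isolated windows set to negative (0.680). Blocks of 20 Mb, which hold more windows under 40 Mb apart, gave 23 called pairs of 80 in place of 0 of 310. Like against mixed gene density did not pass over all 6 with matched pairs (0.0498), nor on chromosome 5 with tertiles of bins (0.184) or GC content (0.208). The count of libraries with both sections cut moved with the cut-off, above trans by 5.50 on chromosome 2 and 5.20 on chromosome 3 at 0.5%, by 3.40 on chromosome 3 and 4.30 on chromosome 6 at 5%, and by 3.50 on chromosome 3 with isolated windows kept, none of which passed. The causes of these changes were not tested. Of 406 alternative values, 368 kept their side of the threshold or moved within the spread, 26 became weaker, 10 stronger and 2 moved. No paired analysis was possible because there is no second group whose samples could be paired with these, while cis and trans were compared within each library. The number of slices, and calls without depth, limit what can be seen. A chromosome's long-range ratio has an SE of 0.154 to 0.450 with trans as measured. With matched detection the SE is 0.185 to 0.523.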
